A study of Mus musculus with 24 samples.

Results

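The folate one-carbon enzymes examined here are the products of 8 mouse genes, Mthfd1l, Mthfd1, Mthfd2, Mthfd2l, Shmt1, Shmt2, Aldh1l2 and Tyms, measured in the heart. They were chosen by gene symbol after earlier results of these data had shown Mthfd1l among the genes that were higher at ZT12 in sedentary hearts, so the sedentary comparison of the 2 times of day is given for them as a description with no test. Each symbol matched 1 of the 52350 Ensembl gene identifiers, and all 8 genes were among the 15294 that passed the filter on low counts. The filter was set on counts and not on a difference between groups.

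Poly-A RNA from 24 whole hearts, 1 library per heart, was sequenced in 4 groups of 6 male wild-type C57Bl/6 mice aged 12 weeks, which were kept on 12 h of light and 12 h of dark. ZT12-EX mice ran once on a treadmill at ZT12, the start of the active phase, for 60 min at 10 m/min and 0% grade, and ZT12-SED mice stayed sedentary at that time. ZT0-EX mice ran the same bout at ZT0, the start of the rest phase, and ZT0-SED mice were their sedentary controls. The running mice had been habituated to the treadmill, and no source used here gives the interval between the bout and the collection of the heart. Replicates 1 to 3 of each group were on flow cell 1 and replicates 4 to 6 on flow cell 2.

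Folate cofactors carry one-carbon units that cells need for purines, thymidylate, methionine and formyl-methionine. The work is divided between the mitochondria, where the carbon of serine is released and passed on as formate, and the cytosol, where formate is taken up again for synthesis. SHMT2 and SHMT1 move a carbon from serine to tetrahydrofolate in mitochondria and cytosol. MTHFD2 and MTHFD2L oxidise the product in mitochondria, and MTHFD1L releases it as formate. ALDH1L2 instead oxidises formyl-tetrahydrofolate to carbon dioxide in mitochondria and yields NADPH. MTHFD1 is the cytosolic enzyme that takes formate back, and TYMS uses a folate carbon to make thymidylate for DNA. The heart holds few dividing cells, and its folate enzymes also serve mitochondrial translation and redox balance.

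Mthfd1l was the member that moved. The region around its annotated start, and that of its cytosolic counterpart Mthfd1, which did not pass the test, are shown to let the pair be compared. Each line gives 250 bases before to 50 bases after the start from RefSeq, build GRCm38.p6, 5′ to 3′ on the gene's own strand, at chr10:3972825-3973124 (+) for Mthfd1l and chr12:76254982-76255281 (+) for Mthfd1. Capitals mark a match to the searched letters.
Mthfd1l: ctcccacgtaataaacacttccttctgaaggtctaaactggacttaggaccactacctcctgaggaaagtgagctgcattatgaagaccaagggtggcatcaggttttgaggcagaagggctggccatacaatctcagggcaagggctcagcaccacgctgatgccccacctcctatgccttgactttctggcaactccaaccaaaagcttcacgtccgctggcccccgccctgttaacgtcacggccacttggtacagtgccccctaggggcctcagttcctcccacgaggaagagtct
Mthfd1: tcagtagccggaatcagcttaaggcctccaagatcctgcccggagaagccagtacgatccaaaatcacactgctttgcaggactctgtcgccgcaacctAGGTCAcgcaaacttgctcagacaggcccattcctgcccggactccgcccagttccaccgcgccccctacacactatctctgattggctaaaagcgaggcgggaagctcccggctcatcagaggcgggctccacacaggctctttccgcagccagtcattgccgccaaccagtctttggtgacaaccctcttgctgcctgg
6 letter strings were searched on both strands in 32851 promoters of the same length, of which 7 belonged to members; Aldh1l2 is named only. The strings were the E-box CACGTG bound by clock factors, the D-box TTATGTAA bound by PAR bZIP factors, the core AGGTCA of the ROR element, ACANNNTGT, TGATGNAA and TGACGTCA. The Mthfd1l window held none of them. AGGTCA stood in the Mthfd1 window with its first base 151 bases before the start, and 16.3% of all windows held it. CACGTG stood in the Tyms window with its first base 61 bases before the start, and 7.15% of all windows held it. The D-box string was in 0.938% of windows, ACANNNTGT in 6.85%, TGATGNAA in 3.97% and TGACGTCA in 1.79%, and in none of the 7 members' windows. A match describes letters only.

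The libraries held 9697334 to 23067191 counts, so that 3 counts were worth 0.130 to 0.575 CPM (counts scaled to library size by the TMM method). The 2 flow cells differed in composition. Transcripts of the mitochondrial genome took 25.5% to 55.1% of counts in libraries of flow cell 1 and 2.70% to 23.7% in those of flow cell 2, and the Spearman correlation across genes between a library's deviation and the GC content of transcripts ran between -0.82 and 0.24 on the first flow cell, and between 0.44 and 0.70 on the second. Genes are not independent replicates in that correlation. All 10 cardiomyocyte markers were measured in every group, with summed levels of 32550 CPM or more in each library. In 6 libraries, ZT12-EX 6, ZT12-SED 6, ZT0-EX 4, 5 and 6 and ZT0-SED 6, transcripts of fast skeletal muscle averaged 6.02 or more on the log2 CPM scale over 12 genes, against at most 2.71 in the other 18. ZT12-SED 1, ZT12-SED 2 and ZT12-EX 4 were named in an earlier account of these data as the libraries least like the rest. No pair of libraries within a group agreed within sampling noise, with a chi-square of at least 13.9 per degree of freedom over 60 pairs.

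Divided by exon length, the mitochondrial serine enzyme Shmt2 had the highest level of the 8, at 6.43 ± 3.03 CPM per kb (SD over the 24 libraries), followed by cytosolic Mthfd1 at 3.91 ± 0.923 CPM per kb. Cytosolic Shmt1 had 1.28 ± 0.239 CPM per kb, Mthfd2l 1.01 ± 0.507, Mthfd2 0.993 ± 0.327 and Aldh1l2 0.889 ± 0.370 CPM per kb. Tyms had 0.558 ± 0.140 and Mthfd1l 0.498 ± 0.397 CPM per kb. Of the neighbours in this order, Mthfd1 and Shmt1 were farther apart than the sum of their SDs, and the other neighbours were not. The place of Mthfd1l in the order depended on the time of day. Its level was 0.880 ± 0.241 CPM per kb in ZT12-EX and 0.827 ± 0.238 in ZT12-SED hearts, above Tyms at 0.595 and 0.507 in the same groups, and 0.148 ± 0.0328 CPM per kb in ZT0-EX and 0.138 ± 0.0415 in ZT0-SED hearts, the lowest of the 8 enzymes (SD, n = 6 each).

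Mthfd1l, which makes the formate that leaves the mitochondrion (ENSMUSG00000040675, chromosome 10), was higher at ZT12 than at ZT0 in hearts of exercised mice. Its level in ZT12-EX libraries ran from a lowest value of 2.05 CPM over a median of 4.11 to a highest of 4.86 CPM, and in ZT0-EX libraries over 0.432, 0.654 and 0.884 CPM in the same order. All 6 ZT12-EX libraries lay above all 6 ZT0-EX libraries. The fold was 5.94, with a log2 fold change of 2.57 ± 0.25 (SE) and an adjusted p of 7.59e-07 in edgeR's quasi-likelihood test. The difference of mean log2 CPM, with a prior count of 2, was 2.39 and 2.30 on flow cells 1 and 2. The groups did not overlap on either. Separate edgeR fits of flow cell 1 alone and flow cell 2 alone gave 2.56 ± 0.35 and 2.62 ± 0.33. The whole groups stood apart in this direction for 58 of the 15294 genes, or 0.379%. In 5 of the 15294 genes the fold was larger than that of Mthfd1l, and so it was in 2 of the 12287 genes with an average log2 CPM above 1.

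Sedentary hearts, whose comparison led to the choice of this gene, gave values of the same size. Mthfd1l had a lowest value of 1.92, a median of 3.80 and a highest of 4.70 CPM in ZT12-SED libraries, and 0.315, 0.626 and 0.786 CPM in ZT0-SED libraries. The groups again did not overlap on either flow cell. The fold was 6.11, a log2 fold change of 2.61 ± 0.26 (SE), with differences of mean log2 CPM of 2.02 and 2.70 on flow cells 1 and 2. Separate fits of flow cell 1 alone and flow cell 2 alone gave 2.21 ± 0.37 and 2.90 ± 0.33. Here 136 genes, or 0.889% of those tested, had ZT12-SED libraries that all lay above the ZT0-SED libraries.

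**Figure D1:**
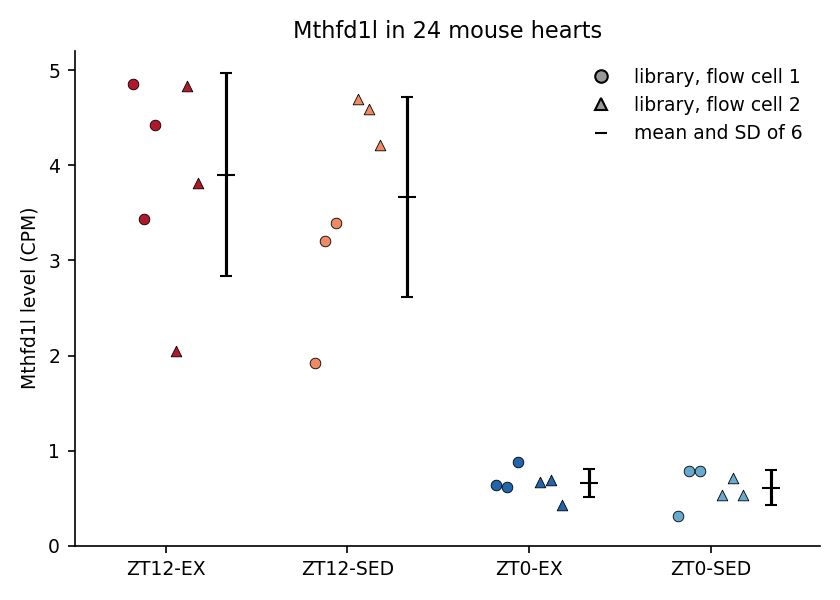
Level of Mthfd1l in each of the 24 hearts (y axis, CPM, from 0) by group (x axis), with circles for flow cell 1, triangles for flow cell 2, and the mean with SD of 6 libraries beside them. The 12 libraries of ZT12 lie at 1.92 CPM or above and the 12 of ZT0 at 0.884 CPM or below, with and without exercise.

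These levels rest on small counts. Mthfd1l had 10 to 98 counts in ZT12 libraries and 7 to 17 in ZT0 libraries. The lowest ZT12 library, ZT12-SED 1, held 10 counts, which put its level between 0.920 and 3.53 CPM by an exact Poisson interval of 95%, and the highest ZT0 library, ZT0-EX 3, held 17 counts with an interval of 0.515 to 1.42 CPM. Those 2 intervals overlapped. Such intervals cover counting error only. ZT12-EX 4, the lowest of its group, had 19 counts and an interval of 1.24 to 3.21 CPM.

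Exercise did not move Mthfd1l past the test at either time. At ZT12 its mean was 3.90 ± 1.07 CPM in ZT12-EX and 3.67 ± 1.06 CPM in ZT12-SED hearts (SD, n = 6 each), a log2 fold change of 0.08 ± 0.23 with a 95% interval of -0.40 to 0.56 and an adjusted p of 0.865 in edgeR. The 2 flow cells differed in sign there, with 0.59 and -0.41 on flow cells 1 and 2. At ZT0 the means were 0.656 ± 0.145 CPM in ZT0-EX and 0.612 ± 0.184 CPM in ZT0-SED hearts, a log2 fold change of 0.12 ± 0.28 with an interval of -0.46 to 0.71 and an adjusted p of 0.867. The exercise effect at ZT12 minus that at ZT0 was -0.04 ± 0.35 (adjusted p = 0.968), with an interval of -0.78 to 0.70. The sedentary libraries in these comparisons are also those whose time of day led to the choice of the gene.

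In bulk tissue a lower level in each cell and fewer cells of a type cannot be told apart. In the exercised comparison of times, none of the 10 cardiomyocyte markers passed the test, and Col1a1 and Col3a1 of the 8 fibroblast markers were lower and Cd3g of the 6 lymphocyte markers tested was higher at ZT12. The summed level of the fibroblast markers was 622 to 3821 CPM in ZT12-EX and 921 to 2399 CPM in ZT0-EX libraries, and that of the lymphocyte markers 8.46 to 15.0 and 8.74 to 14.4 CPM in the same groups. None of these markers was at 0 in all libraries. Their part in the Mthfd1l difference was not tested. Fast skeletal muscle markers summed to 201 to 7152 CPM in ZT12-EX and 975 to 5903 CPM in ZT0-EX libraries. Their mean on the log2 CPM scale ran from 0.04 to 6.56 in ZT12-EX and from 0.68 to 7.83 in ZT0-EX libraries. These sums alone do not show skeletal muscle in a library. Another fit left out the 6 libraries in which these 12 genes averaged 6.02 or more on the log2 CPM scale. That left ZT0-EX with flow cell 1 alone, and the log2 fold change of Mthfd1l was 2.39 ± 0.38 (adjusted p = 0.00379 in edgeR).

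The other mitochondrial enzymes of the same route did not follow Mthfd1l. Of the 8 members, 1 was higher and 0 were lower at ZT12 in exercised hearts, where 0.811% of all genes were called higher, 0.837% lower and 1.65% in either direction. The median log2 fold change of the 8 was 0.00, against 0.02 over all genes. Shmt2, which loads serine carbon in mitochondria (ENSMUSG00000025403, chromosome 10), had a lowest, median and highest level of 6.19, 19.1 and 31.5 CPM in ZT12-EX libraries and 15.2, 23.2 and 34.2 CPM in ZT0-EX libraries. Its groups overlapped, and its log2 fold change of -0.46 ± 0.25 did not pass the test (adjusted p = 0.423).

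Mthfd2 (ENSMUSG00000005667, chromosome 6), the dehydrogenase known from growing cells, spanned 2.78 to 6.06 CPM in ZT12-EX and 3.20 to 5.62 CPM in ZT0-EX libraries, with medians of 3.51 and 3.96 CPM. Its log2 fold change was -0.06 ± 0.22 (adjusted p = 0.936). Mthfd2l (ENSMUSG00000029376, chromosome 5), its relative in adult tissues, had 1.95, 6.31 and 11.1 CPM as lowest, median and highest in ZT12-EX and 3.42, 5.54 and 9.14 CPM in ZT0-EX libraries. Both genes thus overlapped between the times, and Mthfd2l gave 0.06 ± 0.22 (adjusted p = 0.934). Aldh1l2 (ENSMUSG00000020256, chromosome 10), which burns the formyl group to carbon dioxide, spanned 1.73 to 11.9 CPM in ZT12-EX and 4.29 to 10.4 CPM in ZT0-EX libraries and gave 0.13 ± 0.29 (adjusted p = 0.892).

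None of the cytosolic and nuclear enzymes passed the test either. Mthfd1 (ENSMUSG00000021048, chromosome 12) had 11.7, 17.2 and 22.9 CPM as lowest, median and highest in ZT12-EX and 17.1, 19.5 and 22.8 CPM in ZT0-EX libraries, a log2 fold change of -0.21 ± 0.16 (adjusted p = 0.595). On flow cell 1 its ZT12-EX libraries, at 11.7 to 16.1 CPM, all lay below the ZT0-EX libraries at 17.1 to 18.2 CPM. On flow cell 2 the groups overlapped, and the log2 differences were -0.34 and -0.08 on flow cells 1 and 2. With 3 libraries per group on a flow cell, groups can stand apart by chance. The share of all genes that did so was not counted. Shmt1 (ENSMUSG00000020534, chromosome 11) spanned 3.42 to 6.06 CPM in ZT12-EX and 4.39 to 6.71 CPM in ZT0-EX libraries and gave -0.09 ± 0.17 (adjusted p = 0.857). Tyms (ENSMUSG00000025747, chromosome 5) spanned 1.59 to 4.97 CPM in ZT12-EX and 2.29 to 3.47 CPM in ZT0-EX libraries and gave 0.25 ± 0.21 (adjusted p = 0.616). Over the 7 genes other than Mthfd1l, the 95% intervals of the log2 fold change lay between -0.99, the lower end for Shmt2, and 0.73, the upper end for Aldh1l2, so each excluded a change of the size seen in Mthfd1l.

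**Figure D2:**
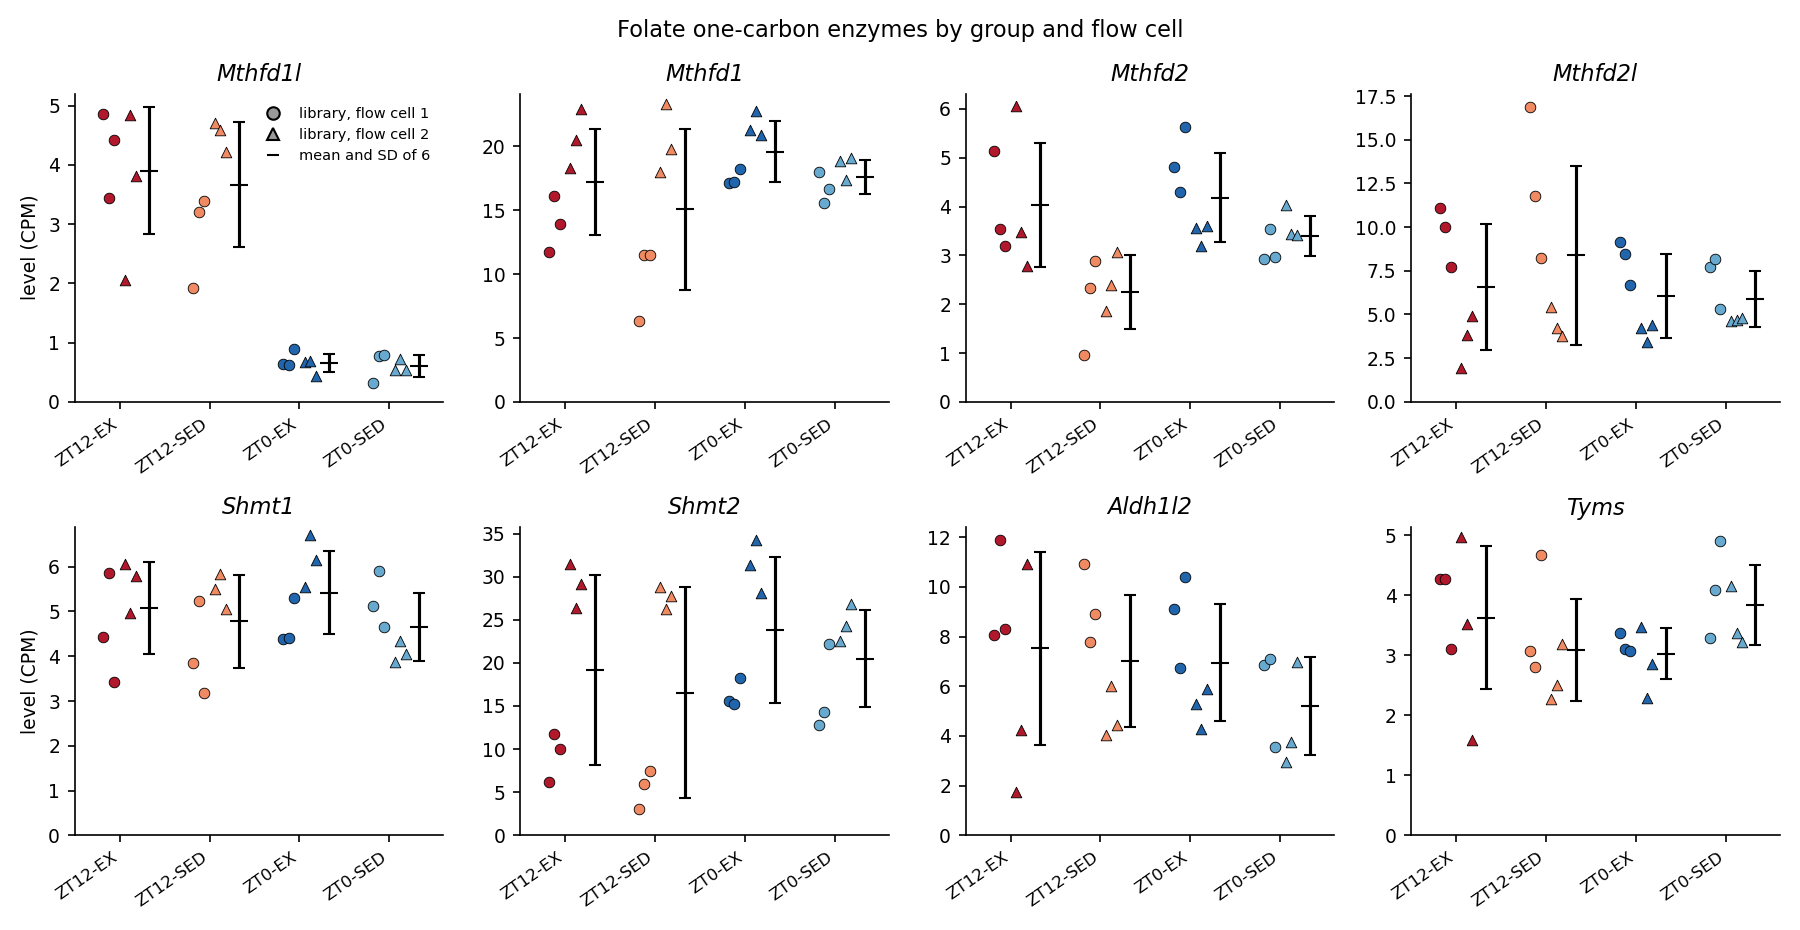
Levels of the 8 enzymes in each heart (y axes, CPM, each from 0) by group (x axes), with circles for flow cell 1, triangles for flow cell 2 and the mean with SD of 6 libraries. Mthfd1l separates by time of day, Shmt2 separates by flow cell over all hearts and Mthfd2l by flow cell within each group, with means of 28.1 and 11.9 CPM for Shmt2 and 4.19 and 9.26 CPM for Mthfd2l on flow cells 2 and 1.

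The difference between Mthfd1l and each other enzyme was tested directly, as the log2 ratio of the 2 levels in each exercised heart. The ratio to Mthfd2, which makes the intermediate that leads to the MTHFD1L reaction, was -0.04 ± 0.76 in ZT12-EX and -2.47 ± 0.29 in ZT0-EX hearts (SD, n = 6 each). The ratio to Mthfd1, the cytosolic counterpart, was -2.13 ± 0.65 in ZT12-EX and -4.68 ± 0.36 in ZT0-EX hearts. Over the 7 ratios the difference between the times ran from 2.16 for Tyms to 2.82 for Shmt2, and no ratio overlapped between the groups. Each gave p = 0.00500 in a two-sided exact permutation test within flow cells, which is the smallest that its 400 permutations allow, and 0.00500 after adjustment over the 7. All 7 ratios share the level of Mthfd1l, which by itself stood apart between these groups on both flow cells. The 7 tests are therefore not independent of each other or of the test of Mthfd1l.

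**Figure D3:**
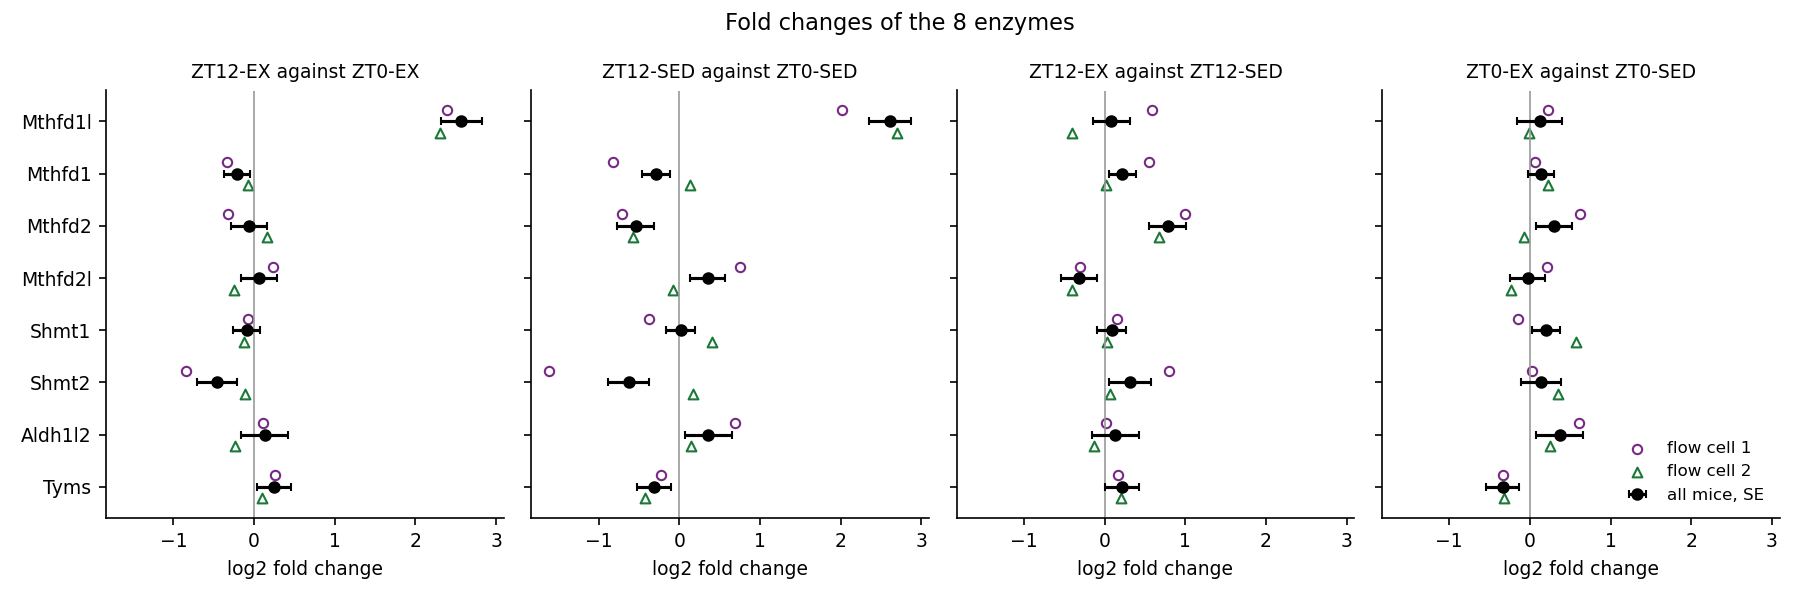
Log2 fold change (x axes) of the 8 enzymes (y axis) in 4 comparisons, each group named first against the group named second. Black points are the fit over all mice with its SE, open circles and triangles the differences of means on flow cell 1 and flow cell 2. Mthfd1l stands at 2.57 and 2.61 in the comparisons of times, and the other black points lie between -0.63 and 0.78.

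The sedentary comparison of times, given as a description, showed larger differences for some of these genes on 1 flow cell. Shmt2 had 3.07, 16.9 and 28.8 CPM as lowest, median and highest in ZT12-SED and 12.8, 22.4 and 26.8 CPM in ZT0-SED libraries. Its log2 difference was -1.61 and 0.17 on flow cells 1 and 2, and -0.63 ± 0.26 over all mice. The exercised libraries had -0.84 and -0.11 on flow cells 1 and 2, so that the ZT12 libraries of flow cell 1 lay below the ZT0 ones both times while those of flow cell 2 overlapped. On flow cell 1 the GC correlation also differed by time, with -0.82 to -0.76 in ZT12-SED, -0.72 to -0.58 in ZT12-EX, -0.51 to 0.24 in ZT0-SED and -0.23 to -0.18 in ZT0-EX libraries. Shmt2 had the highest GC content of the members, 57.4%. With a GC trend removed from each library its log2 fold change was -0.20 ± 0.13 in exercised and -0.08 ± 0.13 in sedentary hearts. With 2 surrogate variables and no GC trend removed it was -0.27 ± 0.18 and -0.06 ± 0.20. The part of GC content in the Shmt2 difference was not tested.

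Mthfd2 was lower at ZT12 on both flow cells in sedentary hearts, at 0.959, 2.36 and 3.07 CPM as lowest, median and highest in ZT12-SED and 2.93, 3.43 and 4.04 CPM in ZT0-SED libraries. The groups did not overlap within either flow cell, with log2 differences of -0.71 and -0.57 on flow cells 1 and 2, and the estimate over all mice was -0.54 ± 0.23. Mthfd1 had -0.82 and 0.13 on flow cells 1 and 2, and -0.29 ± 0.17 over all mice. On flow cell 1 all its ZT12-SED libraries lay below the ZT0-SED ones. Tyms was lower without overlap on flow cell 2, with -0.23 and -0.42 on flow cells 1 and 2 and -0.31 ± 0.21 over all mice. Mthfd2l and Aldh1l2 went the other way on flow cell 1, where all their ZT12-SED libraries lay above the ZT0-SED ones. The log2 difference of Mthfd2l was 0.75 and -0.08 on flow cells 1 and 2, and 0.35 ± 0.22 over all mice. That of Aldh1l2 was 0.69 and 0.15, and 0.36 ± 0.29 over all mice. Shmt1 had -0.37 and 0.41 on flow cells 1 and 2, with no overlap on the second, and 0.02 ± 0.18 over all mice. Groups of 3 libraries can stand apart by chance. The share of all genes without overlap within 1 flow cell was not counted, for this or any other comparison. Such differences were not particular to these enzymes. On flow cell 1 alone 6552 of 15071 genes were called between the sedentary times, and on flow cell 2 alone 35 of 15165.

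No member passed the test for exercise at ZT12, where 0.294% of all genes were called. The median log2 fold change of the 8 was 0.17, against 0.06 over all genes. Mthfd2 came nearest. Its level was 2.78, 3.51 and 6.06 CPM as lowest, median and highest in ZT12-EX and 0.959, 2.36 and 3.07 CPM in ZT12-SED libraries, and the groups overlapped over all mice while those of flow cell 1 did not. The log2 fold change was 0.78 ± 0.23, with an unadjusted p of 0.00218 and an adjusted p of 0.155 in edgeR, and 1.00 and 0.67 on flow cells 1 and 2. Without ZT12-SED 1, ZT12-SED 2 and ZT12-EX 4 it was 0.42, and the adjusted p ran between 0.0577 and 0.914 over the 17 alternatives. Mthfd2 was the 1 member with an unadjusted p below 0.05 here, and DESeq2 and limma-voom also called 0 of the 8.

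No member passed for exercise at ZT0 either, where 1.08% of all genes were called. The 8 log2 fold changes lay between -0.34 for Tyms and 0.37 for Aldh1l2, with a median of 0.14 against -0.01 over all genes, and the smallest adjusted p was 0.546. Tyms averaged 3.03 ± 0.423 CPM in ZT0-EX and 3.84 ± 0.661 CPM in ZT0-SED hearts, and Aldh1l2 6.94 ± 2.35 and 5.21 ± 1.96 CPM in the same groups (SD, n = 6 each). Both overlapped between the groups. None of the 8 had an unadjusted p below 0.05, and DESeq2 and limma-voom called 0.

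The exercise effect at ZT12 minus that at ZT0 passed for 0 of the 8 members and for 0 of the 15294 genes in edgeR. Tyms had the smallest unadjusted p of the members, 0.0722, with a difference of 0.56 ± 0.30 and an adjusted p of 0.571. Over all genes 1226 had an unadjusted p below 0.05, DESeq2 called 5 and limma-voom 0. For Tyms, the log2 fold change with exercise was 0.22 ± 0.21 at ZT12 (adjusted p = 0.584) and -0.34 ± 0.21 at ZT0. The proliferating cell markers had 0 of 9 called in each of the 5 comparisons.

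Shmt2, Mthfd1, Mthfd2l and Aldh1l2 differed more between the flow cells than in any comparison of groups over all mice. Mean levels on flow cell 2 and flow cell 1 were 28.1 and 11.9 CPM for Shmt2, 20.3 and 14.5 CPM for Mthfd1, 4.19 and 9.26 CPM for Mthfd2l and 5.05 and 8.30 CPM for Aldh1l2. Shmt2 and Mthfd1 were higher on flow cell 2 in all 4 groups, and Mthfd2l, Aldh1l2 and Tyms were higher on flow cell 1 in all 4. The log2 difference between flow cells was 1.40 for Shmt2, whose transcript has the highest GC content, and -1.10 for Mthfd2l, which has the lowest at 40.1%. For Mthfd1l, with 51.7% GC, it was 0.04. The part of GC content in the differences between flow cells was not tested. Neighbouring genes on the opposite strand overlap exons of Mthfd1, Shmt1, Shmt2 and Aldh1l2, and no source used here gives the strand setting of the counting, so reads of those overlaps cannot be assigned. Ndufa4l2, which overlaps Shmt2, had a log2 difference of -2.29 and -0.30 on flow cells 1 and 2 between ZT12-SED and ZT0-SED libraries.

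**Figure D4:**
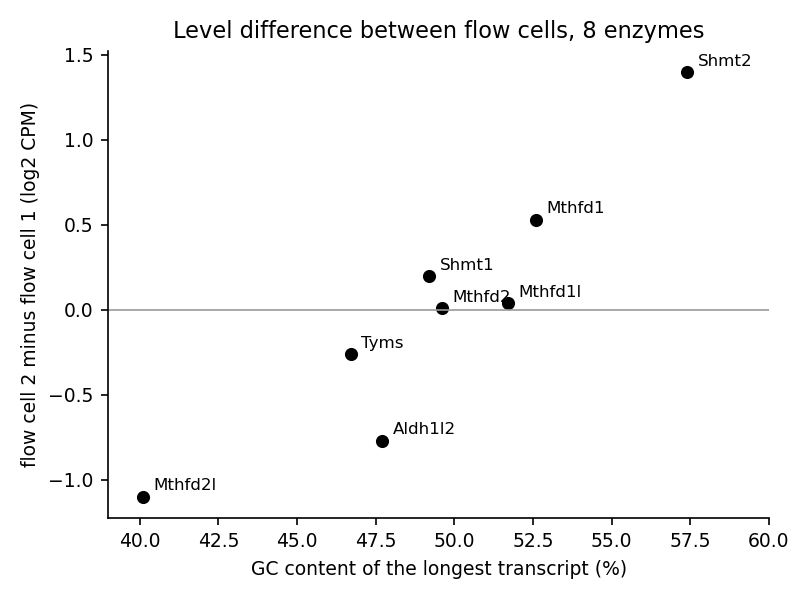
Difference in mean log2 CPM between flow cell 2 and flow cell 1 (y axis) of the 8 enzymes against the GC content of their longest transcript (x axis, %), 1 point per gene. Shmt2 lies at 1.40 and 57.4% GC, Mthfd2l at -1.10 and 40.1%, and Mthfd1l at 0.04 and 51.7%.

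Genes with a pattern like that of Mthfd1l were ranked by the root mean square difference of log2 CPM over the 24 libraries, after each flow cell's mean was subtracted. Predicted gene models, pseudogenes, genes under an average log2 CPM of 1 and the enzymes themselves were left out. Among the 11445 genes that remained the nearest was Ciart, a repressor within the circadian clock, at 0.44, followed by the flavin monooxygenase Fmo2 at 0.48 and the period gene Per3 at 0.50. Hlf, Dbp and Tef, the 3 PAR bZIP output factors of the clock, came next at 0.52, 0.53 and 0.54. The median over the genes compared was 1.30, and the other 7 enzymes had 1.22 for Mthfd2l to 1.54 for Shmt2. A gene that did not vary within flow cells would have 1.24, the root mean square of Mthfd1l about its own flow cell means. This is a description over libraries that include those used to choose the gene.

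All 6 nearest genes had higher means at both ZT12 groups than at both ZT0 groups. They were picked for likeness to Mthfd1l over the same libraries, so this direction and the rough size of their folds follow from that choice. Dbp averaged 65.8 ± 44.1 CPM in ZT12-EX, 73.0 ± 57.0 in ZT12-SED, 8.31 ± 2.68 in ZT0-EX and 10.6 ± 3.37 CPM in ZT0-SED hearts (SD, n = 6 each). Per3 averaged 42.8 ± 12.0 CPM in ZT12-EX, 47.0 ± 4.33 in ZT12-SED, 7.38 ± 0.945 in ZT0-EX and 5.72 ± 1.70 CPM in ZT0-SED hearts. In exercised hearts the log2 fold change between the times was 2.84 ± 0.29 for Dbp and 2.53 ± 0.20 for Per3, on either side of the 2.57 of Mthfd1l, and 1.64 ± 0.20 to 2.01 ± 0.20 for Hlf, Tef, Fmo2 and Ciart.

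**Figure D5:**
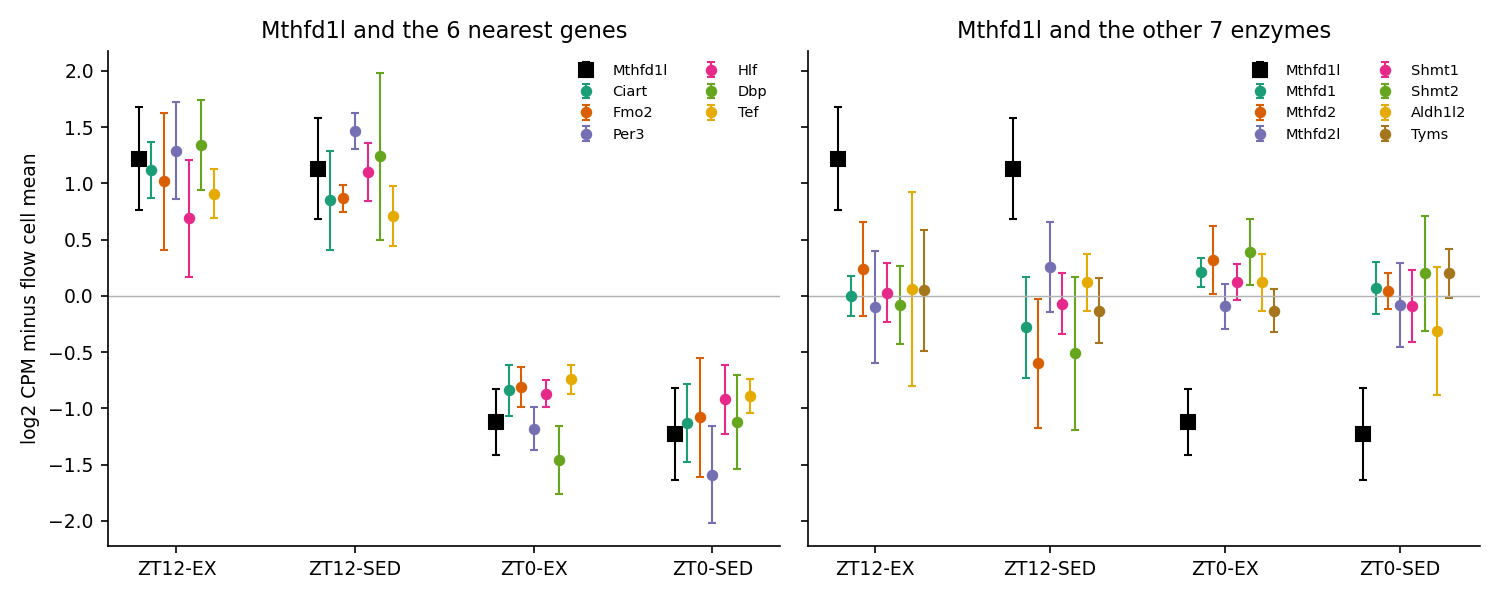
Mean of log2 CPM after subtraction of each flow cell's mean (y axes) by group (x axes), with SD of 6 libraries, for Mthfd1l beside the 6 nearest genes on the left and beside the other 7 enzymes on the right. Mthfd1l lies at 1.22, 1.13, -1.12 and -1.23 in ZT12-EX, ZT12-SED, ZT0-EX and ZT0-SED, and the means of the other enzymes between -0.60 and 0.39.

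The wider pathway was read from 7 lists of 80 genes, of which 71 passed the filter on low counts. In exercised hearts 1 of the 71 was higher and 0 lower at ZT12, or 1.41% against 1.65% of all genes. The 1 gene was Slc1a5, a carrier of neutral amino acids, at 39.3 ± 6.44 CPM in ZT12-EX and 24.7 ± 2.10 CPM in ZT0-EX hearts, a log2 fold change of 0.64 ± 0.16 (adjusted p = 0.0419), which failed the test in 8 of 17 alternatives and in 12 of the 24 fits that left out 1 library. None of the 9 other folate cycle enzymes tested and none of the 5 folate transport genes passed. Nor did any of 10 genes of the methionine cycle, 13 of purine synthesis, 9 of deoxynucleotide supply or 13 of the integrated stress response.

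In sedentary hearts 5 of the 71 pathway genes were higher and 2 lower at ZT12, or 9.86% against 5.20% of all genes. Amd1, which commits S-adenosylmethionine to polyamine synthesis, averaged 187 ± 105 CPM in ZT12-SED and 66.9 ± 18.1 CPM in ZT0-SED hearts, a log2 fold change of 1.34 ± 0.25 (adjusted p = 0.00222). Ppat, the first committed enzyme of purine synthesis, averaged 24.8 ± 7.29 CPM in ZT12-SED and 13.6 ± 3.32 CPM in ZT0-SED hearts (log2 fold change 0.83 ± 0.17, adjusted p = 0.00481). On flow cells 1 and 2 the log2 difference was 1.80 and 0.88 for Amd1 and 1.03 and 0.64 for Ppat. Both genes passed in all 24 fits that left out 1 library, and of 17 other alternatives Amd1 failed in 2 and Ppat in 3.

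Gldc, of the mitochondrial glycine cleavage system, averaged 1.16 ± 0.331 CPM in ZT12-SED and 0.369 ± 0.0973 CPM in ZT0-SED hearts (1.62 ± 0.40, adjusted p = 0.0230). Mat2a, which makes S-adenosylmethionine, gave 0.76 ± 0.20 (adjusted p = 0.0271), and Chac1, an enzyme of glutathione breakdown induced by stress, gave 1.77 ± 0.41 (adjusted p = 0.0138). The 2 lower genes were the folate receptor Folr2, also a marker of tissue macrophages, at -0.77 ± 0.22 (adjusted p = 0.0474), and the stress response factor Atf5 at -0.94 ± 0.22 (adjusted p = 0.0145). Of the 17 alternatives, Chac1 failed in 5, Atf5 in 6 and Mat2a and Folr2 in 9 each, and Gldc failed in 5 of the 16 that gave it an adjusted p. Folr2 passed in 4 of the 24 fits without 1 library and Mat2a in 17, and Mat2a had 1.21 and 0.29 on flow cells 1 and 2. Of the 10 macrophage and monocyte markers, Cd163 and Cx3cr1 passed in this comparison, 1 in each direction, and the part of those cells in the Folr2 difference was not tested.

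Exercise called 0 of the 71 pathway genes at ZT12 and 2 at ZT0, or 2.82% against 1.08% of all genes. Both were on the list of the integrated stress response, where 11 of the 13 genes tested were not called. The median log2 fold change of that list was 0.14, against -0.01 over all genes. Ddit4, an inhibitor of mTOR signalling, averaged 113 ± 32.9 CPM in ZT0-EX and 27.2 ± 5.59 CPM in ZT0-SED hearts, a log2 fold change of 2.07 ± 0.29 (adjusted p = 0.000131). Chac1 averaged 2.44 ± 1.19 CPM in ZT0-EX and 0.591 ± 0.331 CPM in ZT0-SED hearts, 2.01 ± 0.40 (adjusted p = 0.00787), and failed the test in 4 of 17 alternatives. Its level in ZT0-SED hearts rests on few counts. Mthfd2, Shmt2, Mthfd1l and Aldh1l2, which are known as targets of the stress response factor ATF4 in other cells, lay at 0.30 ± 0.22, 0.14 ± 0.25, 0.12 ± 0.28 and 0.37 ± 0.29 in the same comparison, and none passed.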

How the data were processed

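Whole hearts of 24 mice were profiled by poly-A RNA-seq. Per the submitters' processing notes, the authors used Trimmomatic 0.39, HISAT2 2.2.1 and featureCounts 2.0.1 with GRCm39. No source used here gives their roles, the strand setting or the annotation release. The authors deposited raw read counts per Ensembl gene, 1 file per heart, with no normalization. The labels number the mice as biological replicates. Members, lists and tests were chosen with earlier results of these data known.

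Symbols, exon lengths and GC content came from GENCODE M21 (GRCm38); 257 of 52350 identifiers had no symbol and held 0.00128% of counts. Counts were fitted in edgeR 4.0.16 (R 4.3.3; filterByExpr, TMM, robust quasi-likelihood test) with group and flow cell as terms, 24 libraries and 19 residual degrees of freedom. P-values were adjusted over 15294 genes by Benjamini-Hochberg, with a threshold of 0.05, and were tested on simulated data first. CPM used TMM-scaled totals, with a prior count of 2 on the log2 scale. Intervals of a log2 fold change used its SE and the 19 degrees of freedom. Permutations used SciPy 1.17.1.

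Named genes were all 8 members, up to 4 genes with the smallest p per list and comparison among those past the threshold, and the 6 genes nearest to Mthfd1l with an average log2 CPM above 1, predicted models and pseudogenes left out. Alternatives used DESeq2 1.42.0, limma 3.58.1 and sva 3.50.0, other filters, scalings and GC offsets, and fits without libraries. No protein sequence was used here.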

Additional observations from a re-analysis of the deposited data

How the results depend on the processing

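The tested calls of the 8 members did not change in any of 24 fits that left out 1 library or in any of the other alternatives, 17 for each comparison of groups and 16 for the difference between exercise effects. Mthfd1l in exercised hearts gave a log2 fold change of 2.39 to 2.69 between the times over 17 alternatives (adjusted p 5.06e-20 to 0.00879) and 2.48 to 2.70 without 1 library. In sedentary hearts it gave 2.21 to 2.90 and 2.47 to 2.73. Replicate numbers used as a block gave 2.58 ± 0.26 (adjusted p = 6.13e-06), and 2.64 ± 0.25 with GC offsets. The block gave 220 called genes in the exercised comparison of times, and with GC offsets 362. The labels do not say what a replicate number shares. Same-numbered libraries of ZT12-EX and ZT12-SED, as deviations from the means of their group and flow cell, correlated at 0.06 to 0.48, over 0.1 in 5 of 6 pairs, and 10 of those 12 libraries correlated best with their own number, a hint from the data and not from the design. Exercise at ZT12 called 31 genes with the block. In the other 5 pairs of groups 1 to 4 of 6 pairs were over 0.1, and 0 to 4 of 12 libraries correlated best with their own number. Correlations there ran from -0.45 to 0.78, with the highest between ZT12-EX 6 and ZT0-SED 6. Of 1632 member values under alternatives, 94 turned sign, and these lay between -0.40 and 0.36. None of them was called, but those of the sedentary comparison of times were not tested.

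Counts over all genes moved more. The exercised comparison of times called 252 genes, 535 in DESeq2, 1142 with surrogate variables, 17 on flow cell 2 alone, 135 without ZT12-EX 1 and 455 without ZT12-EX 4. The sedentary comparison called 795, 2917 in DESeq2, 6552 on flow cell 1 alone, 35 on flow cell 2 alone, 305 without ZT0-SED 3 and 3273 without ZT12-EX 4. Exercise at ZT12 called 45, between 4 on flow cell 2 alone and 226 in DESeq2, and exercise at ZT0 called 165, between 13 on flow cell 2 alone and 517 with surrogate variables. Scaling by library totals moved the median of all genes to -0.18 between sedentary times, to 0.20 for exercise at ZT12 and to 0.12 for the difference between exercise effects. There 29.5% of the 234 sedentary calls were higher, against 47.3% of the 795 with TMM, and 80.0% of the 25 for exercise at ZT12, against 64.4% of the 45. Slc1a5 gave 0.37 to 0.96 over the 17 alternatives and Mat2a 0.27 to 1.17. The cause of these changes was not tested. Mthfd1l has a median of 16 counts per library, which limits the precision of its level at ZT0.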
